A study of Mus musculus with 5 samples.

Results

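Deep intronic Runx3 peaks are ChIP-seq peaks of Runx3 whose summits lie inside the body of a protein-coding gene, in no exon of a protein-coding gene, and more than 10 kb from the transcription start site (TSS) of every protein-coding transcript. Positions are those of the mouse build mm9 (NCBIM37) and genes are those of GENCODE vM1. On the 19 autosomes, 2811 of 12905 peaks met this rule, which is 21.8% (95% Wilson interval 21.1 to 22.5). The whole list held 13014 peaks, of which 109 lay on chromosome X and were not classed. Chromatin came from D1, a dendritic cell line derived from mouse spleen, and 3 libraries were immunoprecipitated with a polyclonal rabbit antibody raised against mouse Runx3 (Runx3 IP) and 2 with rabbit non-immune serum (NIS IP). No treatment or genotype is given for the cells, and all libraries come from this 1 line. The authors called peaks once, on 1 Runx3 alignment of 8689867 tags against 1 NIS alignment of 4946605 tags, so no library has values of its own, no replicate error can be given, and every interval and p-value below covers counting error only, from PCR reads without molecular identifiers and from peaks that are not independent where they cluster.

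Runx3 belongs to the RUNX family of transcription factors, which bind DNA through the Runt domain together with the partner subunit Cbfb. In dendritic cells and macrophages Runx3 is known as a factor of maturation and of responses to TGF-β. Introns of mammalian genes hold many enhancers, which can act on the promoter of the gene they lie in or on that of another gene, so a host gene named here is the gene around a peak and not a known target. Most RUNX sites carry the letters TGTGGT or, less often, TGCGGT, here called the RUNX core. ETS factors, among them PU.1 of the myeloid lineage, bind sites built on GGAA and often share enhancers with RUNX factors.

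The following sequences come from some of the deep intronic peaks of highest fold enrichment, chosen among those with a RUNX core inside the stretch printed, and are shown because the core is the main sequence feature of the members. Each runs 5′ to 3′ on the plus strand over 61 bases centred on the summit, and capitals mark the core, which reads ACCACA when it lies on the minus strand.
Lmtk2, chr5:144887009-144887069: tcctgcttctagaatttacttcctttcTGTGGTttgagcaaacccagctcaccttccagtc
Fndc3b, chr3:27483485-27483545: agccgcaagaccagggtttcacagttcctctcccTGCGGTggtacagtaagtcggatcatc
Bid, chr6:120852174-120852234: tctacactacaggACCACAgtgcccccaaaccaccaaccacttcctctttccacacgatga
Stard13, chr5:151915454-151915514: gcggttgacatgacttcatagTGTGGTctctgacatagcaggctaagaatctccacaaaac
Runx1, chr16:92654268-92654328: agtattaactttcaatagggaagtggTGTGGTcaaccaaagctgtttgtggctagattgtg

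The next 3 sequences come from some of the highest deep intronic peaks with no core within 100 bp of the summit, shown because not all of the strongest members have it. Capitals mark GGAAGTGG, a joined ETS and RUNX-like site, or its minus-strand form CCACTTCC. The third holds neither.
Os9, chr10:126540870-126540930: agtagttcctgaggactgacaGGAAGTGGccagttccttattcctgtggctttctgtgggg
Ccdc146, chr5:20917350-20917410: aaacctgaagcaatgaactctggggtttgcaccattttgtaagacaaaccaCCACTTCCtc
Vps53, chr11:75944798-75944858: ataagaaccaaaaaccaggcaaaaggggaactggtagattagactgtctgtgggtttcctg

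The last set shows cores beside a second motif, which is the pattern that the motif counts describe. Capitals mark the core together with the joined ETS-RUNX letters in Atp6v1c1, with a PU.1 site in Slc2a1 and Prkca, and with an AP-1 site in Tnxb and Arl15. In Arl15 the core and the AP-1 letters share a base.
Atp6v1c1, chr15:38601747-38601807: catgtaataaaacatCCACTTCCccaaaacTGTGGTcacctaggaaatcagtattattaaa
Slc2a1, chr4:118799985-118800045: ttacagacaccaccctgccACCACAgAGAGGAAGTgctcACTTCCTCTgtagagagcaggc
Prkca, chr11:107929864-107929924: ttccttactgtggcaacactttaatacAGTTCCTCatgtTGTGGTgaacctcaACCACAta
Tnxb, chr17:34818149-34818209: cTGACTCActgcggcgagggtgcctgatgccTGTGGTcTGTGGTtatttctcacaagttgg
Arl15, chr13:114619500-114619560: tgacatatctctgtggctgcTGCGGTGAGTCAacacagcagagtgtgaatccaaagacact

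The deposited fold enrichment of a peak is the Runx3 signal at its summit plus 1, over the local NIS background plus 1, with the Runx3 signal scaled to the depth of the NIS alignment. Deep intronic peaks had a median fold of 8.55, with quartiles of 6.82 and 11.2 and a range from 3.01 to 42.0. The median summit was covered by 20 Runx3 fragments, with a range from 9 to 109, and the median peak was 172 bp wide. The highest 3 lay in Lmtk2, a membrane-anchored kinase gene, Os9, which acts in the disposal of misfolded proteins in the endoplasmic reticulum, and Ptpn12, a tyrosine phosphatase gene that acts on focal adhesion proteins. Lmtk2 reached a fold of 42.0 with 109 fragments (exact 95% Poisson interval 89.5 to 131), Os9 reached 40.8 with 104 fragments (85.0 to 126) and Ptpn12 reached 39.4 with 93 fragments (75.1 to 114). These counting intervals overlap, so the order of the 3 is not resolved.

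The next peak stood in Fndc3b (chr3:27483401-27483766), with a fold of 33.7 and 76 fragments, 126 kb from the nearest protein-coding TSS and 0.402 kb from the start of an annotated miRNA, AC118696.1. Ccdc146, Csnk1g3 and Vps53 followed with folds of 33.2, 31.1 and 31.1, and none of these summits had a core within 100 bp. Bid, the gene of a BH3-only protein of the apoptosis pathway, held a fold of 30.8 in its first intron, 14.6 kb from the nearest TSS. Taf4a (28.9), Zfp608 (27.9), Stard13 (27.9) and Cux1 (26.4) completed the highest 12. Among these 12, Os9, Ccdc146, Csnk1g3, Vps53, Taf4a and Cux1 lacked the core, and the others had it.

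Depth inside genes varied widely. The median distance to the nearest protein-coding TSS was 30.1 kb, with quartiles of 18 and 57.1 kb, and 297 peaks (10.6%) lay over 100 kb from every such TSS. That nearest TSS belonged to the host gene for 2160 peaks (76.8%, interval 75.2 to 78.4), and to another gene model, in a few cases one of the same name, for the rest. The farthest was in Immp2l, which encodes a mitochondrial peptidase subunit (chr12:42979568-42979768), 767 kb from the nearest TSS, that of Lrrn3, with a fold of 10.3 and no core. A peak in 5033411D12Rik lay 666 kb away with a fold of 7.23 and no core. The other 3 of the farthest 5 lay in large neuronal genes: Ptprd, a receptor phosphatase of synapses, held peaks of fold 5.96 and 15.0 at 599 and 585 kb, and Lrp1b, a lipoprotein receptor relative, held one of 9.06 at 585 kb, all with a core. At the 10 kb limit itself, the members just inside were near Sdc4 (10.001 kb, fold 12), Fgf2 (10.009 kb, fold 8.18) and Itpr1 (10.017 kb, fold 12.9). The summits just outside, which were not counted, were near Bnip3l (9.996 kb, fold 8.55), Pxn (9.996 kb, fold 20.3) and Morn3 (9.992 kb, fold 5.22).

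Most members were far from exons as well. The median distance to the nearest exon of a protein-coding gene was 4.55 kb, and 622 peaks (22.1%) lay within 1 kb of one. An intron could be assigned to 2773 peaks, from the longest protein-coding transcript of the host with an intron at the summit. Of these, 741 (26.7%) lay in the first intron, 473 (17.1%) in the second and 1559 (56.2%) in a later one. The density per base was counted otherwise, on the longest protein-coding transcript of every gene, so its counts differ from those above. Deep first introns held 5.56 peaks per Mb (751 over 135 Mb) and later introns 4.01 per Mb (2041 over 509 Mb). The ratio was 1.39 (exact 95% interval 1.28 to 1.51, two-sided exact binomial p = 7.4e-14). First-intron members were also nearer a TSS, with a median of 23.0 kb against 32.7 kb for later introns, and distance was not held equal in that comparison. Median fold was 8.47 in first introns and 8.55 in later ones, and the core share 71.4% and 70.6%. A start of some other annotated transcript lay within 1 kb of 83 peaks (2.95%), and for 44 of these it was a processed transcript. Those 83 peaks had a median fold of 8.55, as had the 2728 farther from such a start.

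Whether deep introns held more Runx3 peaks than comparable sequence depended on what was held equal. Densities were counted over all non-N bases, repeats included. The share of bases open to unique alignment was not held equal in any of these comparisons. Over 651 Mb of deep intronic sequence the density was 4.32 peaks per Mb, against 2.68 in intergenic sequence over 10 kb from a TSS (distal intergenic, 3420 peaks over 1274 Mb), a ratio of 1.61 (exact 95% interval 1.53 to 1.69; two-sided exact binomial p = 9.31e-76). Deep intronic density was the higher on 19 of 19 autosomes, with ratios between 1.02 on chromosome 2 and 2.19 on chromosome 12. Against introns within 10 kb of a TSS (near introns, 1972 peaks), which held 9.35 per Mb, the ratio was 0.46 (0.44 to 0.49; two-sided exact binomial p = 9.21e-143).

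The difference from intergenic sequence shrank once distance to the TSS was matched. Both kinds of sequence held fewer peaks per Mb with distance, and 73.0 of 651 Mb of deep intron lay over 200 kb from a TSS, against 502 of 1274 Mb of distal intergenic sequence. At 10 to 20 kb deep introns held 6.28 peaks per Mb against 6.36 in intergenic sequence, a ratio of 0.99 (0.90 to 1.09). At 20 to 50 kb the densities were 5.38 and 5.08 (ratio 1.06, 0.97 to 1.15), at 50 to 100 kb 3.99 and 3.60 (1.11, 0.99 to 1.24), and at 100 to 200 kb 2.40 and 2.05 (1.17, 0.997 to 1.38). Over 200 kb from a TSS, 61 deep intronic peaks gave 0.836 per Mb against 0.592, a ratio of 1.41 (1.05 to 1.87). None of the 5 ratios passed a Benjamini-Hochberg adjusted p of 0.05 by the exact binomial test, and the lowest adjusted p was 0.0848. This depended on which starts were counted. With the TSS of every annotated transcript, non-coding ones included, the ratio was 1.28 at 20 to 50 kb, 1.44 at 50 to 100 kb and 1.82 over 200 kb, and these 3 passed the exact test (adjusted p = 2.32e-07, 4.75e-07 and 0.0165).

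**Figure D1:**
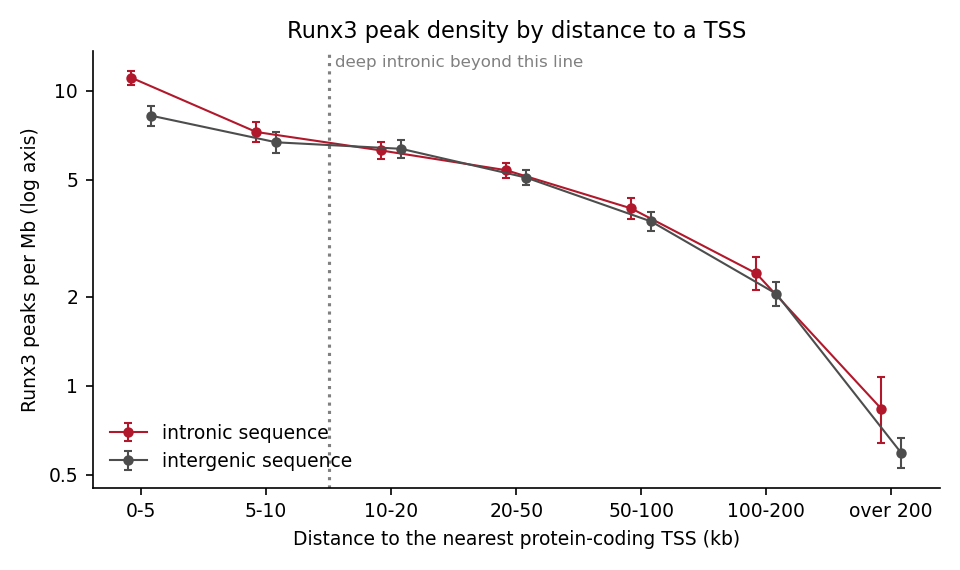
Runx3 peaks per Mb (log axis) of intronic and intergenic sequence, in bins of distance to the nearest protein-coding TSS (kb), with exact 95% Poisson intervals as bars. Beyond the dotted line at 10 kb the intronic points are the deep intronic peaks, and both curves fall together, to 0.836 per Mb in introns and 0.592 in intergenic sequence over 200 kb from a TSS.

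Deep intronic peaks stood slightly higher than peaks elsewhere. A fold of 10 or more was reached by 33.9% of deep intronic peaks (interval 32.1 to 35.6), against 29.1% of near intronic, 30.2% of distal intergenic and 22.0% of promoter peaks, where a promoter is the 1 kb before a TSS and the 100 bp after it. By two-sided Fisher's exact tests, adjusted over 12 class comparisons, the difference was 4.76 percentage points from near introns (adjusted p = 0.00079), 3.63 points from distal intergenic peaks (adjusted p = 0.00296) and 11.8 points from promoters (adjusted p = 4.55e-23). The first 2 differences were small, and they did not pass the exact test at a fold of 15 or more, where they were 0.744 points (adjusted p = 0.406) and −0.177 points (adjusted p = 0.824). NIS background at the summit had a median of 0.356 in deep introns, 0.357 in near introns and 0.333 in distal intergenic sequence, and among peaks at the genome-average background the differences were 3.99 and 2.64 points (Fisher's exact test, adjusted p = 0.0979 and 0.183).

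**Figure D2:**
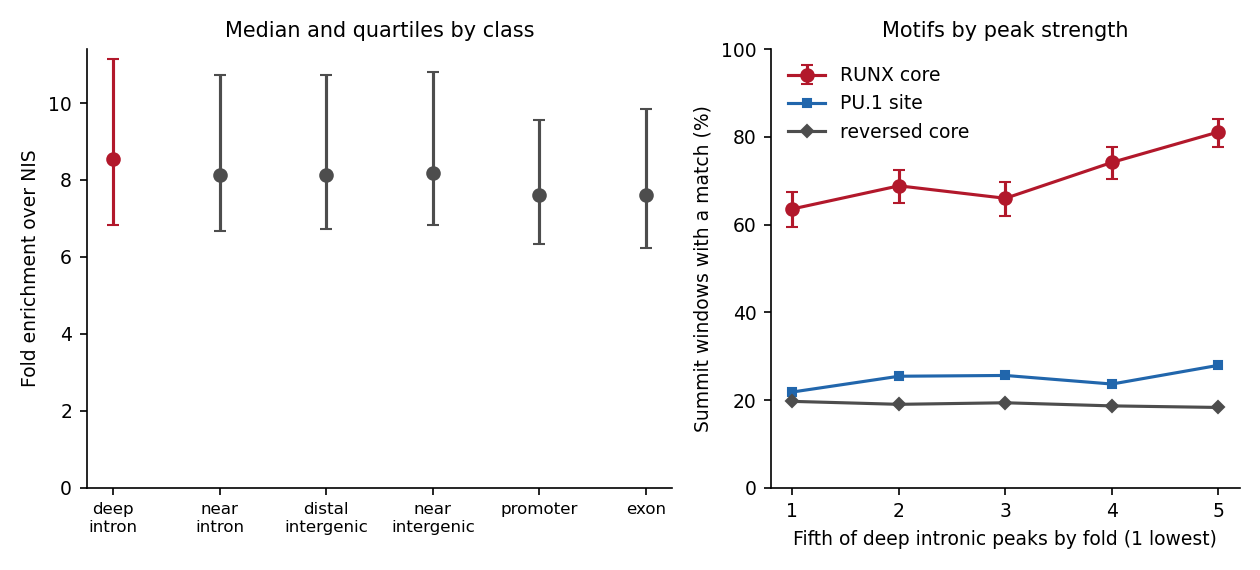
Left, fold enrichment over NIS by peak class, with points at the median and bars from the lower to the upper quartile; deep introns have a median of 8.55 and promoters 7.62. Right, the share of deep intronic summit windows of 201 bp with a motif, by quintile of the members ordered by fold; the RUNX core is in 63.6% of the lowest quintile and 81.1% of the highest, with 95% Wilson intervals as bars.

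The RUNX core was the leading sequence feature of the members. It was found on either strand within 100 bp of 1989 of 2811 summits, or 70.8% (interval 69.0 to 72.4). In windows of the same 201 bp centred 1 kb upstream and 1 kb downstream of the same summits it was found in 18.1% and 17.6%. By two-sided exact McNemar tests both differences passed, with adjusted p of 1.17e-307 or lower over 44 motif and flank comparisons. The control letters TGGTGT and TGGCGT, the core read backwards without its complement (reversed core), were found in 19% of summit windows, against 16.0% and 15.0% of the flanks. That smaller difference also passed the exact McNemar test (adjusted p = 0.00573 and 1.65e-04). Median fold was 7.87 for the 822 members with no core in the window, 8.55 for 1367 with 1 core, 9.17 for 506 with 2 and 9.87 for 116 with 3 or more.

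Cores gathered at the summit itself. The core nearest to the summit lay at a median of 14.5 bp from it, counted from the centre of the core, and within 25 bp for 1447 of 1989 peaks (72.8%). The 20 bp around the summit held 28.9 cores per 100 peaks, and bins more than 110 bp away held 1.53 to 2.67. The form TGTGGT was in 65.8% of summit windows and TGCGGT in 8.22%. Read along the core, the base before it was C at 42.7% of cores in summit windows and at 34.2% in the flanks, and the base after it was T at 43.1% of cores in summit windows and at 29.9% in the flanks.

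**Figure D3:**
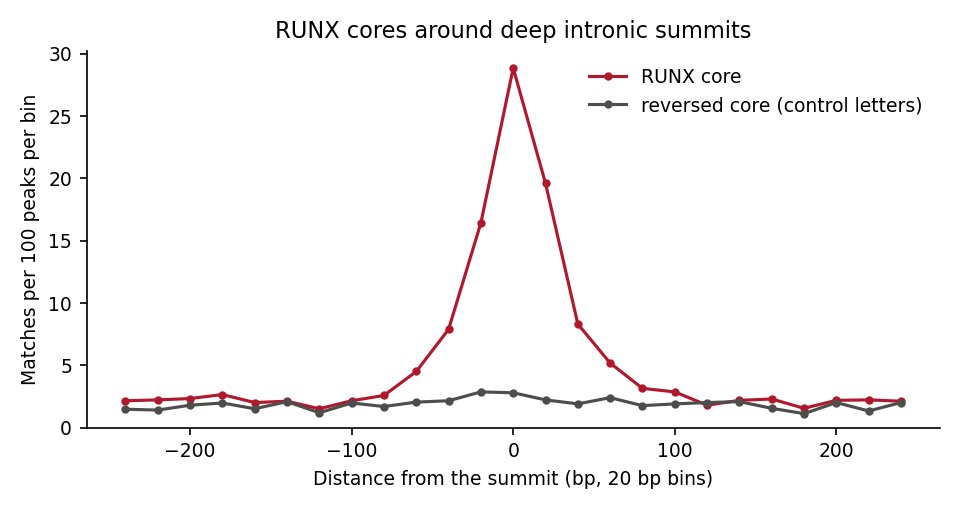
Matches per 100 deep intronic peaks in bins of 20 bp by distance from the summit (bp), for the RUNX core and for the reversed core as a control. The core reaches 28.9 per 100 peaks in the central bin, where the control letters have 2.81.

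Stronger members held the core more often. Its share was 63.6% (interval 59.5 to 67.5) in the quintile of members with the lowest folds and 81.1% (77.7 to 84.2) in the quintile with the highest, a difference that passed a two-sided Fisher's exact test (p = 4.91e-11). Median GC content was 48.3% in both quintiles. From the lowest to the highest quintile, PU.1 sites were found in 21.8%, 25.4%, 25.6%, 23.7% and 27.9%, which is no steady rise and was not tested. The reversed core letters were in 19.7% of the lowest and 18.3% of the highest.

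The core share of deep introns was close to that of near intronic and distal intergenic peaks. Exon peaks had a lower share, 63.7% (interval 59.8 to 67.5), which was not tested. The core was in 70.8% of peaks in deep introns, 68.3% in near introns and 69.6% in distal intergenic sequence. Neither difference passed the Fisher's exact test (odds ratio 1.13, interval 0.99 to 1.28, adjusted p = 0.0746 against near introns; 1.06, 0.95 to 1.18, adjusted p = 0.317 against distal intergenic peaks). With the core searched within 50 bp of the summit the difference from near introns was 4.49 points and passed the exact test (adjusted p = 0.00239). The difference from promoter peaks was large, with the core in 70.8% of deep intronic peaks, at a median GC content of 47.8%, against 47.1% of promoter peaks, at 65.2% (odds ratio 2.72, Fisher's exact test, adjusted p = 2.77e-74). Against all other autosomal peaks together the difference was 8.51 points (Fisher's exact test, adjusted p = 1.43e-16), but among peaks with a fold of 10 or more it was 3.50 points and did not pass (adjusted p = 0.0617). Within deep introns the share hardly moved with distance from a TSS: it was 70.7% at 10 to 20 kb, 70.8% at 20 to 50 kb, 70.9% at 50 to 100 kb, 70.3% at 100 to 200 kb and 72.1% farther out.

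The 2 forms of the core differed between classes. TGTGGT was in 65.8% of deep intronic windows, against 57.9% in near introns and 62.6% in distal intergenic sequence (Fisher's exact test adjusted over 44 motif and class comparisons, adjusted p = 3.37e-07 and 0.0464). TGCGGT, which contains a CpG, was in 8.22% of deep intronic windows, against 14.3% in near introns (exact test, adjusted p = 7.39e-10) and 10.1% in distal intergenic sequence (adjusted p = 0.0595, which does not pass). The GC-rich letters of KLF and SP factors, CCCCGCCC and CCCCACCC, were lower against both, with 2.92% in deep introns against 7.66% in near introns and 4.74% in distal intergenic sequence (exact test, adjusted p = 5.08e-12 and 0.00249).

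Cores in deep introns were more often on the sense strand of the host. Of 2764 cores in summit windows, 1654 (59.8%, interval 58.0 to 61.7) read 5′ to 3′ along the host gene. Windows 1 kb away held 54.9% sense cores (1129 cores), windows 2 kb away 58.7% (1072 cores), and the reversed core letters were sense in 59.9% of their 604 matches at summits. By Fisher's exact test the summits differed from windows 1 kb away (p = 0.00518), while against windows 2 kb away the test did not pass (p = 0.51), so the excess of sense cores was also present beside the peaks.

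Sites of ETS factors were the next most frequent feature. PU.1 sites (GAGGAAGT, AGAGGAAG or GAGGAACT) were found in 24.9% of deep intronic summit windows, against 4.59% upstream and 4.98% downstream (exact McNemar test, adjusted p = 2.22e-104 and 3.89e-99). The general ETS core (CCGGAA or CAGGAA) was in 38.0%, against 21.9% and 22.9%. The joined ETS-RUNX letters GGATGTGG and GGAAGTGG were in 17.7%, against 2.13% and 2.63% (exact McNemar test, adjusted p = 2.57e-89 and 5.46e-82). GGATGTGG holds a RUNX core where T follows it, and PU.1 and ETS letters can overlap GGAAGTGG at GGAA. AP-1 sites (TGACTCA, which reads TGAGTCA on the other strand) were in 12% of summit windows, against 3.66% and 4.06% (exact McNemar test, adjusted p = 7.4e-32 and 3.96e-28). STAT letters (TTCCNGGAA or TTCCNNGAA) were in 6.12%, against 2.77% and 3.02%, and RBPJ letters (GTGGGAA) in 6.4%, against 4.09% and 4.27%, and both passed against both flanks. NF-kB letters (GGGANTTCC, GGGGATTCC or GGGACTTTC) were in 1.67%, against 0.534% and 0.747%, and passed against both. CTCF sites were in 1.03%, against 0.142% upstream and 0 of 2811 downstream, which allows a share of up to 0.107%.

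Other motifs were not raised against both flanks, and some were lower at the summits. TCF-LEF letters (CTTTGAT or CTTTGAA) were in 5.87% of summit windows, against 8.32% upstream and 8.0% downstream, and were lower in both exact tests (adjusted p = 6.14e-04 and 0.00352). The SMAD letters CAGACA were in 18.4%, against 19.2% and 20.1%, and the SMAD palindrome GTCTAGAC was in 3 windows, against 6 and 5. Neither passed in either direction. IRF letters (GAAANNGAA) passed the exact test against the upstream flank but not the downstream one, with 8.15% at summits against 5.98% (adjusted p = 0.00294) and 6.76% (adjusted p = 0.0714). C/EBP letters (TTGCGCAA, TTGCATAA, TTGCGTAA, TTGCACAA, TTGTGCAA or TTATGCAA), the E-box CACGTG, MEF2 letters (CTAAAAATA, CTATTTTTA or CTATAAATA) and the KLF and SP letters given above passed in neither comparison. The CRE palindrome TGACGTCA was in 12 summit windows, against 3 upstream and 2 downstream, and passed against the downstream flank alone (exact McNemar test, adjusted p = 0.0516 and 0.0196). GATA letters (AGATAAG) were lower than in the downstream flank alone, at 2.13% against 3.31% (exact test, adjusted p = 0.0141).

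**Figure D4:**
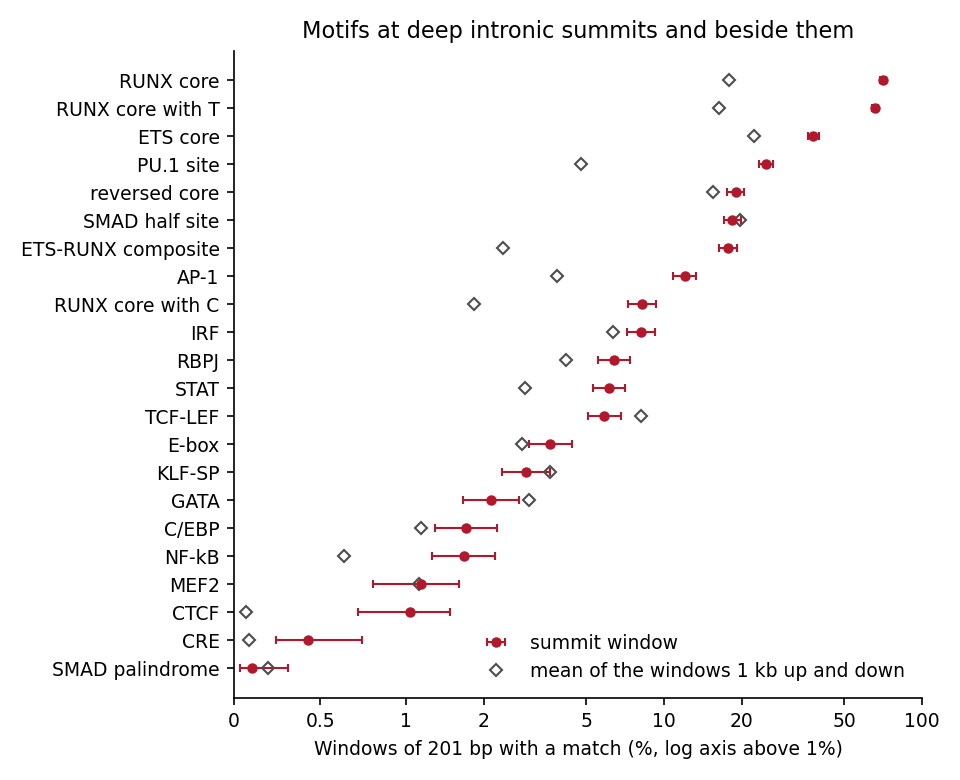
Share of 201 bp windows with each of 22 motifs (%, log axis above 1%) at deep intronic summits, with 95% Wilson intervals, and the mean share of the windows 1 kb upstream and downstream of the same peaks. RUNX core, PU.1, ETS-RUNX composite and AP-1 stand well right of their flanks, and TCF-LEF stands left of them.

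Summits without a core held more ETS letters than summits with one. Among the 822 members without a core within 100 bp, 29.3% had a PU.1 site, against 23.1% of the 1989 with a core (odds ratio 1.38, interval 1.15 to 1.67, adjusted p = 0.0059 by Fisher's exact test over 18 motifs). The joined letters GGAAGTGG were in 21.8% of windows without a core (interval 19.1 to 24.7), against 0.852% and 1.09% of their own flanks and 9.0% of windows with a core. The other joined form, GGATGTGG, was in 4.62% of windows without a core and 5.63% of those with one. Os9 and Ccdc146 above, the highest 2 peaks without a core, both carry GGAAGTGG. Runx1 and Bid, printed above with a core, carry these letters too, there left in lower case. Members without a core that held either joined form had a median fold of 8.47, against 7.87 for all members without a core. With a core the same medians were 9.42 and 8.78, so the higher fold was not particular to summits without one.

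Against other classes, PU.1 sites were more frequent in deep introns than in near introns, with 24.9% against 21.1% (Fisher's exact test, adjusted p = 0.0197), and AP-1 sites likewise, with 12% against 9.48% (adjusted p = 0.0408). Distal intergenic peaks had shares of 25.3% and 14.0%, and neither exact test against them passed (adjusted p = 0.853 and 0.115).

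Deep intronic peaks less often had a close neighbour than near intronic ones. Another summit lay within 10 kb of 1048 deep intronic summits (37.3%, interval 35.5 to 39.1), against 54.4% of near intronic and 41.1% of distal intergenic summits, differences of −17.1 and −3.77 percentage points (Fisher's exact test, adjusted p = 9.51e-31 and 0.00301). The difference from distal intergenic peaks did not hold in every setting, with −2.34 points over 5 kb from a TSS, −0.706 points at a fold of 10 or more and −3.10 points at the genome-average background (exact tests, adjusted p = 0.0578, 0.741 and 0.131). Over 200 kb from a TSS the shares ran the other way, with 32.8% of deep intronic and 29.0% of intergenic summits, a difference that was not tested. Of the 1048 members with such a neighbour, 937 (89.4%) had another deep intronic peak as the nearest summit, and 70 a near intronic one. Deep intronic peaks were 21.8% of autosomal peaks, but the 2 shares are not alike. By rule a member has no protein-coding TSS within 10 kb, which limits the classes its near neighbours can have. The 89.4% is therefore no measure of members gathering together, and it was not compared with other classes. The same rule bears on the −17.1 points. Near intronic summits lie within 10 kb of a TSS, where promoter peaks can be their neighbours. Distance to the TSS was not held equal in that comparison. The median distance to the nearest summit was 17.3 kb.

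Host genes were counted among the 10907 of 21418 autosomal protein-coding gene models that contain any deep intronic sequence, here called eligible. Of these, 1620 held 1 or more deep intronic peaks, which is 14.9% (interval 14.2 to 15.5), and 9287 held none. One peak each was found in 999 genes, while 621 genes held 2 or more, 79 held 5 or more and 4 held 10 or more, so that 1831 of 2811 peaks lay in genes with several. Length weighs on these counts: genes with a peak had a median of 68.3 kb of deep intron against 21.5 kb over all eligible genes, and the share with a peak was 1.61% in the quartile of genes with the least deep intron and 33% in the quartile with the most.

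Genes with a deep intronic peak more often had a promoter peak too. A summit in a promoter of the gene was present for 371 of 1620 genes with a deep intronic peak (22.9%), against 1457 of 9287 without one (15.7%), an odds ratio of 1.6 (interval 1.40 to 1.82; two-sided Fisher's exact test, adjusted p = 1.21e-11 over all genes and 4 quartiles). It passed in each quartile of deep intron length, with 36.4% against 15.9% in the shortest, 24.8% against 18.3% and 23.8% against 17.6% in the middle quartiles and 21.4% against 9.35% in the longest.

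The host with the most members was Gm20388, a gene model of over 1 Mb on chromosome 8 that spans other genes. It held 28 peaks, 18 of them in no other protein-coding gene, with folds up to 14.2. Gene models over 1 Mb numbered 48, and 42 members lay only within such models. Cux1, a homeodomain factor gene, came next with 14 peaks over 277 kb of deep intron, 50.6 per Mb. Its highest stood at chr5:136941293-136941538 with a fold of 26.4 and no core, and 2 more in the same intron, number 3 of 23, had folds of 23.6 and 21.7. Cux1 lies in the distal part of chromosome 5, from 110 Mb to its end, where deep introns held 9.19 peaks per Mb against 4.21 elsewhere, a median NIS background of 0.583 against 0.334, and the core in 60.6% of summits against 71.2%. The part of that background in the count of Cux1 was not tested.

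Lpp, which encodes a zinc-binding adhesion protein of the cytoskeleton, held 10 peaks, the highest at chr16:24659318-24659502 with a fold of 16.8. Snx29, a sorting nexin gene that the annotation gives as more than 1 model, held 10 in the longer one, up to a fold of 14.9. Sgms1, a sphingomyelin synthase gene, held 9, with folds of 23.7, 20.7 and 16.8 for the highest 3, all with a core. Chn2, a Rac GTPase-activating gene, also held 9, and its highest peak, chr6:54112690-54113172, had a fold of 22.4 in the first intron, 102 kb from the nearest TSS. Cdk6, a cell cycle kinase gene, held 8 within 146 kb of deep intron, 54.9 per Mb, and 6 of them had folds over 10. Asap1, an Arf GTPase-activating gene, held 8, of which 7 had a core, with the highest at 18.9.

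RUNX genes differed among themselves. Runx1 held 6 deep intronic peaks over 188 kb. The highest, printed above, had a fold of 26.3 with 59 fragments and lay in intron 5 of 7, 41.6 kb from the nearest Runx1 TSS. The others had folds of 12.45 in intron 6, 8.94, 6.76 and 6.14 in intron 2 and 6.82 in intron 4, and 5 of the 6 carried a core. Neither Runx3 itself, with 24.4 kb of deep intron, nor Runx2, with 250 kb in its longer model, held a deep intronic peak, and both had a promoter peak. Cbfb, the partner subunit, held none in 34.2 kb. Of the 15 gene models in the list of RUNX genes and their corepressor partners, 6 held a member (40.0%, interval 19.8 to 64.3). The share over all eligible genes was 14.9%. The median gene of this list had 65.1 kb of deep intron, within the quartile of genes with the most. In that quartile the share was 33%, which lies inside the interval of the list. Among the hosts were the Groucho-type corepressors Tle3 (fold 12.2) and Tle4 (11.2) and the kinase gene Hipk2, with 3 peaks up to 11.

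Gene lists are described by counts and by peaks per Mb of deep intron, beside 4.32 per Mb and 14.9% for all eligible genes, with no test. Transcription factors of dendritic and myeloid cells had a member in 19 of 47 genes at 10.3 per Mb. Nfatc1, a calcium-regulated factor, held 5 peaks, all with a core, up to a fold of 25. Rara, the retinoic acid receptor alpha gene, held one of 21.6 without a core in its first intron, 10.135 kb from a TSS. Stat3 held one of 17.2 and Mef2c 3 up to 15.0, while Zeb2 (105 kb of deep intron) and Ets1 (85.7 kb) held none.

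Signalling genes of the membrane followed. Tyrosine kinases and phosphatases had members in 17 of 37 genes at 8.49 per Mb, with the highest folds in the receptor phosphatases Ptprj (22.7), Ptpre (17.6) and Ptpro (16.7) after Ptpn12. Among phosphoinositide, diacylglycerol and calcium signalling genes, 23 of 44 held members, at 7.60 per Mb. The protein kinase C genes Prkca and Prkch reached 22.0 and 17.2, the calcium channel gene Itpr2 15.6 and the Ras exchange factor gene Rasgrp1 14.9. Chromatin regulators had members in 18 of 43 genes at 8.46 per Mb but with a lower median of each gene's highest fold, 8.09, against 9.42 over all host genes. Ncoa2 (13.3), Zmiz1 (12, the highest of 7), Arid1b (12) and Smarca2 (11.5) were highest. Membrane traffic genes had 18 of 43 at 5.46 per Mb, an interval (3.8 to 7.59) that includes the overall density, with Wdfy4, a gene of cross-presentation in dendritic cells, at 17.2.

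The cytokine receptor and pattern recognition lists had little deep intron and few peaks, but more per Mb than the 4.32 of all eligible genes. Distance from a TSS was not held equal for these lists. All deep introns at 10 to 20 kb from a TSS held 6.28 per Mb, a value inside the pattern recognition interval given below. Cytokine and chemokine receptors had 11 peaks in 9 of 32 genes over 0.755 Mb, 14.6 per Mb (interval 7.27 to 26.1). The highest were in Ifngr2 (14.6, in its last intron and without a core), Il17ra (14.2), Il6ra (11) and Il2ra (10.3). The interleukin-10 receptor genes Il10ra and Il10rb, with only 2.71 and 7.3 kb of deep intron, held no deep intronic peak, but Il10rb had a promoter peak. Pattern recognition and NF-kB genes had 11 peaks in 8 of 34 genes, 12.2 per Mb (6.08 to 21.8), led by Nfkb1 (15.0), the kinase gene Irak2 (13.4) and the intracellular sensor gene Nod1 (12), with Tlr4 at 10.3. TGF-β and BMP signalling stood near the background, with 9 peaks in 6 of 30 genes, 4.56 per Mb (2.09 to 8.66). Smad4, the common mediator, held one of 15.8, Pmepa1, a feedback inhibitor, one of 14.6, the ubiquitin ligase gene Smurf1 3 up to 11.9 and Smad3 2 up to 7.69. Tgfbr2, the type II receptor gene, held one of 5.91.

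Among genes chiefly used in other tissues, the neuronal list was low per base. Neuronal adhesion molecules, channels and receptors had 29 peaks over 41.1 Mb of deep intron, 0.705 per Mb (0.472 to 1.01), in 13 of 50 genes (26.0%). That share stood above the 14.9% of all eligible genes but below the 33% of the quartile of them with the most deep intron. The highest were in Auts2 (20.03), Ctnnd2 (15.5, the highest of 7), Ptprd (15.0) and Dpp6 (11.3). Genes of muscle structure had 13 peaks in 6 of 29 genes (20.7%), 2.54 per Mb, with an interval (1.35 to 4.34) that includes the overall density, led by Pdlim3 (12.9), Ryr1 (11.7), Ryr2 (9.93, the highest of 7) and Synpo2 (9.42). The median gene of the neuronal list had 723 kb of deep intron and that of the cytokine receptor list 16.4 kb, and the lists were not compared at equal length or at equal distance from a TSS.

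**Figure D5:**
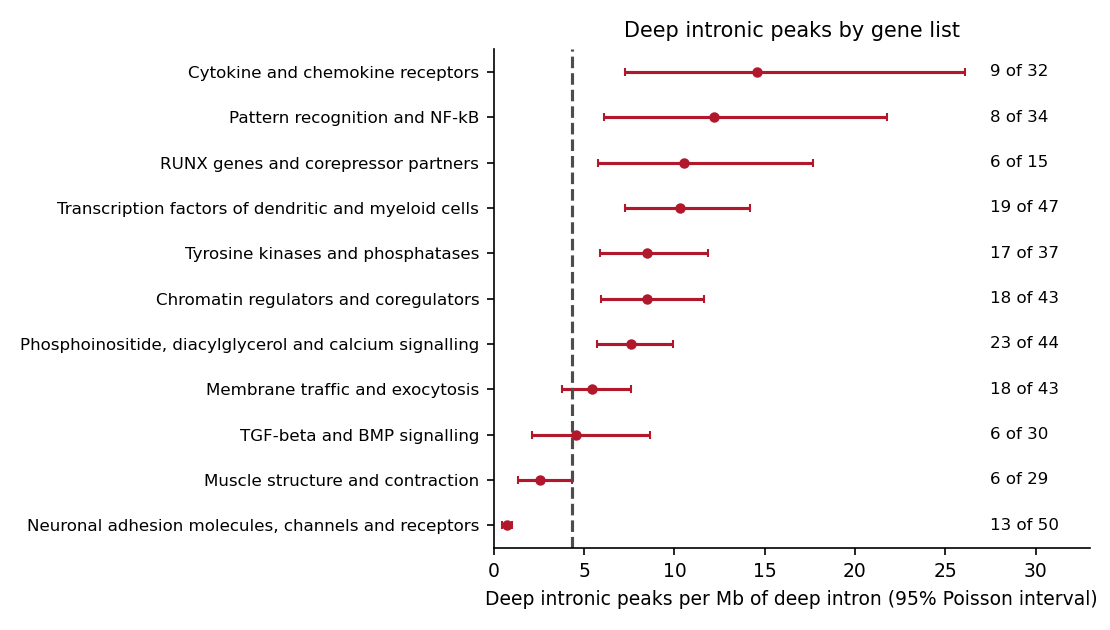
Deep intronic peaks per Mb of deep intron for 11 gene lists, with exact 95% Poisson intervals, and at the right the number of eligible genes of each list with a peak. The dashed line is the density over all eligible genes, 4.32 per Mb; the neuronal list lies below it, at 0.705, and the cytokine and chemokine receptor list above it, at 14.6.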

How the data were processed

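Per the labels and the study's methods, D1 chromatin was precipitated with anti-Runx3 antibody or non-immune serum. The labels and methods speak of 2 replicate experiments, while 3 Runx3 IP and 2 NIS IP libraries are listed. According to the submitters' processing notes, CASAVA 1.8 and Bowtie 1 made unique alignments to mm9. Per the file headers, the authors called peaks with MACS2 2.0.10 on 12078978 Runx3 and 7110481 NIS tags of 38 bp (8689867 and 4946605 after 1 tag per position was kept), with a fragment length of 119 bp and a q cutoff of 0.05. Which libraries were joined is not given in the sources used here. The deposited pileup is a signal, fragment coverage scaled to the NIS depth; the deposited fold enrichment is a ratio of pileup plus 1 to NIS background plus 1; the deposited −log10 q column, whose name was lost in the file, was taken from its place in MACS2 output (the −log10 p column was not used). One fragment is worth 0.569 pileup units, and all pileups were whole fragments within 0.00872. Each peak's NIS background was computed back from pileup and fold.

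Summits, sequence windows and non-N bases were classed with GENCODE vM1 on NCBIM37. Promoters took precedence, then exons. Motifs were searched as exact letters on both strands. Tests were exact (binomial, Fisher, McNemar) with SciPy 1.17.1 in Python 3.11.15 and were tested on simulated data; neighbouring peaks are not independent. Named genes were the 12 highest and 5 farthest peaks, 3 on each side of the limit, the 8 hosts with most peaks (7 genes tied at 8 peaks, of which the 2 with the highest peak were taken), the 4 highest hosts of each list and the RUNX genes, and others named were chosen after their values were seen. Members, lists and tests were chosen with earlier results of these data known. Alternatives changed the distance limit, annotation, peak threshold, background, binning and search window. The results of 1 gene list and 1 named gene are not reported here.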

Additional observations from a re-analysis of the deposited data

How the results depend on the processing

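No paired analysis was possible because the 1 deposited list holds no values per library, and for the same reason no replicate could be left out. Of 125 planned results under alternatives and 20 added after seeing the data, 109 were counted as unchanged. These kept their direction and their side of the threshold or, for shares without a test, stayed inside their interval. The number of members was instead counted as unchanged within a fixed factor of 2811, with no interval. Counts that passed so were 3504 over 5 kb, 1959 over 20 kb and 2212 with the TSS of every annotated transcript. For the results counted as changed the cause was not tested. The number of members was 952 at a fold of 10 or more, 1456 with 1 peak per 100 kb bin and 1212 at the genome-average NIS background, each smaller by construction. The core share was 78.7% at a fold of 10 or more, 76.6% with 1 peak per bin and 64.2% within 50 bp. The core difference from near introns passed with 1 peak per bin (4.64 points) and within 50 bp (4.49 points), that from distal intergenic peaks was −0.627 points at a fold of 10 or more, and that from all other peaks did not pass there (3.50 points). The fold difference from near introns did not pass with the TSS of every annotated transcript (2.41 points), 1 peak per bin (3.65), genome-average background (3.99) or a fold of 15 (0.744). That from distal intergenic peaks did not pass in the same settings (2.66, 3.10 and 2.64 points) and was −0.177 points at a fold of 15. The neighbour difference from distal intergenic peaks did not pass over 5 kb (−2.34 points), at a fold of 10 or more (−0.706) or at the genome-average background (−3.10). The share of eligible genes with a member was 14.2% over 5 kb, 15.8% over 20 kb, 14.0% with every TSS, 13.3% among peaks of −log10 q 5 or above, 6.75% at a fold of 10 or more, 11.2% with 1 peak per bin and 8.21% at the genome-average background. The density ratio at 10 to 20 kb was 1.05 with every TSS and 1.07 with 1 peak per bin. At 100 to 200 kb it passed with 1 peak per bin (1.46) and among peaks of −log10 q 5 or above (1.26), and over 200 kb among these too (1.46), while with every TSS it passed at 20 to 50 kb (1.28), 50 to 100 kb (1.44) and over 200 kb (1.82). The pooled ratios to distal intergenic sequence and to near introns kept their direction and passed in every alternative run. Depth sets the lowest detectable peak, here 9 fragments, and unique alignment leaves repeated sequence without peaks.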
